A study of Mus musculus with 4 samples.

Results

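The 41 genes described here encode the core machinery of autophagy and the receptors that hand over cargo and mitochondria to it. They were chosen by gene name, with no rule on their levels, and all 41 were found among the 17995 genes listed in at least 1 of the deposited tables of mouse platelet RNA. Platelets are the small anucleate blood cells that seal wounds. RNA-seq was made of 4 libraries, each from the pooled platelets of 7 male mice. A conditional knockout of HuR in platelets at 3 months of age (cKO) was set against wild-type littermates of the same age (WT), and wild-type mice of 24 months (Old) were set against wild-type mice of 3 months (Young). Which promoter drives the recombinase in the knockout is not stated in the labels. The study asked what platelet HuR does in ageing, and HuR is an RNA-binding protein, encoded by Elavl1, that binds AU-rich stretches of messenger RNAs.

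Autophagy encloses cell contents in a membrane that closes into an autophagosome and fuses with the lysosome. The Ulk kinase complex starts it, the PI3-kinase complex around Becn1 marks the membrane with the lipid PI3P, Atg9a and the Atg2 proteins feed the membrane with lipid, and a conjugation cascade fixes proteins of the Atg8 family (LC3 and GABARAP) onto it. Cargo receptors bind both the Atg8 family and ubiquitin, and mitophagy receptors sit on the mitochondrial surface. In mice, loss of Atg7 in megakaryocytes and platelets impairs platelet function, and Bnip3l is known both for clearing mitochondria from maturing red cells and for mitophagy in platelets.

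The libraries held 17702341 reads (library labelled cKO), 17978384 (WT), 18472149 (Old) and 18145612 (Young). Each group is a single pool, so no difference has a replicate behind it, every interval covers counting error only, and fewer cells of a type cannot be told apart from less RNA per cell. Genes are called risen or fallen only if the library with more reads held 100 or more of them and both ends of the 95% interval of the ratio lay 2-fold or further from 1 on the same side. Elavl1 goes against the knockout label: it had 1481 reads in the library labelled cKO, 876 in WT, 527 in Old and 621 in Young, a ratio of 1.66 for the library labelled cKO over WT (1.53 to 1.81). A count per gene cannot show whether an exon was deleted, and directions below are those of the library labelled cKO. All 16 platelet markers, led by Ppbp, Itga2b, Vwf and Pf4, had reads in all 4 libraries. Their summed level was 63610, 69750, 83080 and 65480 RPM (reads normalised to each library's total) in the library labelled cKO, WT, Old and Young. Of these 16 markers, 2 had a ratio above 1 in the library labelled cKO over WT, with 14 intervals wholly below 1, and 13 had a ratio above 1 in Old over Young. Markers of red cells also differed in the first pair: they summed to 16210 RPM in the library labelled cKO against 8343 in WT, and 10 of the 13 with enough reads rose. The part of these shifts in the ratios of the library labelled cKO over WT given below was not tested.

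None of the 41 autophagy and mitophagy genes passed the 2-fold rule in either comparison. Of the 31 with enough reads in the library labelled cKO or in WT, 0 rose and 0 fell, where 4.22% of the 6273 genes that could pass did (2.52% rose and 1.71% fell). Of the 33 with enough reads in Old or Young, 0 rose and 0 fell, where 8.56% of 6519 genes did (4.26% rose and 4.3% fell). The median log2 ratio of the 41 genes was -0.15 in the library labelled cKO over WT and 0.05 in Old over Young, against -0.01 and -0.06 over all genes with at least 20 reads in the pair. The genes ranged on the log2 scale from -0.84 to 0.97 in the first comparison and from -1.15 to 1.40 in the second. At a bound of 1.5-fold the library labelled cKO had Becn1 and Wipi1 above WT and Atg12 below it, which is 9.68% of 31 against 13.5% of all genes. Old had Atg9a above Young and Uvrag and Wipi2 below it, which is 9.09% of 33 against 23.3% of all genes.

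**Figure D1:**
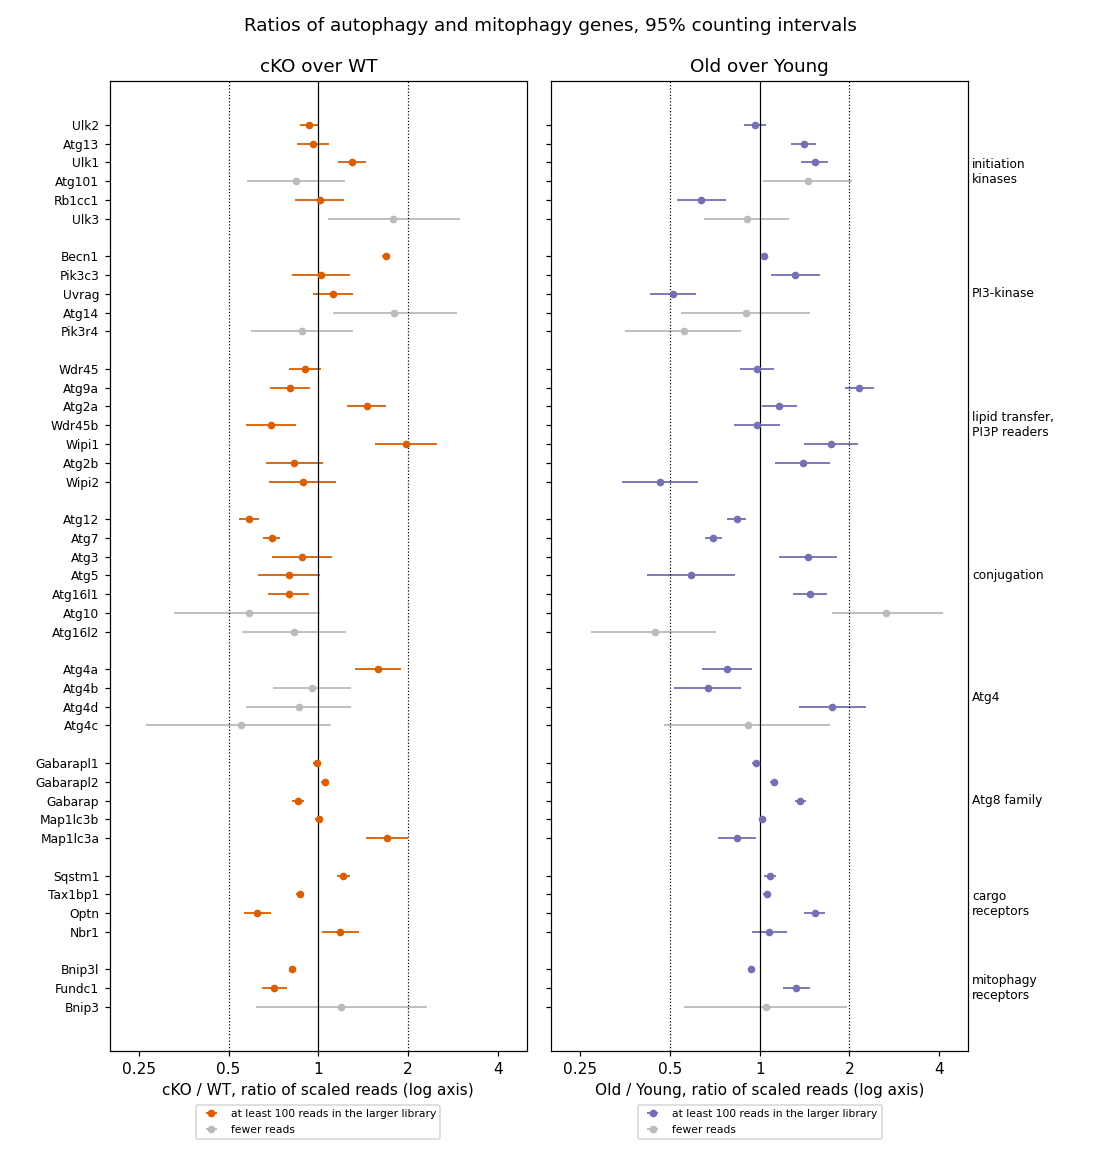
Ratios of scaled reads on a log axis for each of the 41 genes, library labelled cKO over WT on the left and Old over Young on the right, with 95% counting intervals as bars. Grey points have fewer than 100 reads in the larger library, and dotted lines mark 2-fold. No coloured interval lies wholly outside the dotted lines: the highest coloured points are Wipi1 at 1.96 in the left panel and Atg9a at 2.16 in the right.

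Levels among the genes spanned a wide range, and Bnip3l led in every library. Per kilobase of gene length, Bnip3l was highest, with 421, 500, 369 and 441 RPKM (reads scaled to gene length and library total) in the library labelled cKO, WT, Old and Young. Gabarapl1 followed with 244, 238, 229 and 263 RPKM. Next by their mean over the 4 libraries came Gabarapl2 (176 RPKM), Gabarap (124), Becn1 (102), Map1lc3b (89.9), Sqstm1 (56.2) and Tax1bp1 (41.2). With the length of the principal transcript Map1lc3b stood at a mean of 267 RPKM, beside 269 for Gabarapl1, and above Gabarapl1 in the library labelled cKO and in WT. Atg16l2, Pik3r4 and Atg4c lay at the other end, between 0.166 and 0.416 RPKM in the 4 libraries. The 41 genes together took 0.564% of reads in the library labelled cKO, 0.558% in WT, 0.520% in Old and 0.566% in Young, and Bnip3l alone gave 28.8%, 34.6%, 27.4% and 30.1% of those reads. Of the 33 genes with at least 100 reads in some library, 26 stayed within 2-fold over all 4 libraries in RPM, which is 78.8% against 63.5% of 6803 such genes in both tables.

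**Figure D2:**
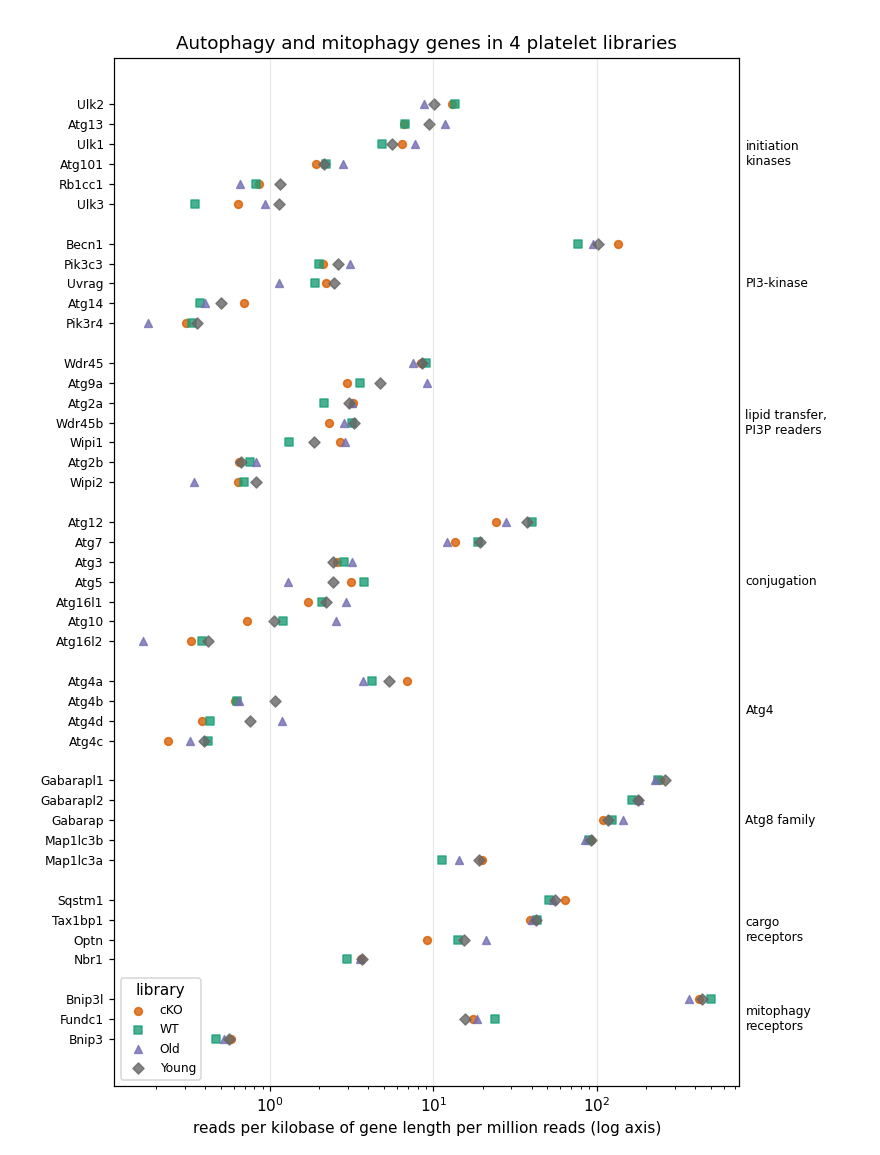
Level of each of the 41 genes in the 4 libraries, in RPKM on a log axis, grouped by role, with 1 symbol per library. Bnip3l, the GABARAP genes, Map1lc3b and Becn1 lie at the high end, and the 4 symbols of Gabarapl1, Gabarapl2, Map1lc3b and Tax1bp1 nearly coincide, while those of Becn1, Wipi1 and Atg9a lie apart.

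All 4 initiation genes with at least 100 reads lay within 1.5-fold in the library labelled cKO over WT, and 2 of 4 did in Old over Young. Ulk1, the kinase that starts autophagosome formation, had 743 reads in the library labelled cKO and 563 in WT, and 922 in Old and 661 in Young. Its ratio was 1.30 (1.16 to 1.45) for the library labelled cKO over WT and 1.53 (1.38 to 1.69) for Old over Young. Its partner kinase Ulk2 had 1383, 1457, 968 and 1101 reads in the library labelled cKO, WT, Old and Young, with ratios of 0.933 (0.866 to 1.00) and 0.963 (0.882 to 1.05). Ulk1 was thus highest in Old, where Ulk2 was lowest. Atg13, the subunit that ties the kinase to its scaffold, had 514 reads in the library labelled cKO and 526 in WT, and 953 in Old and 743 in Young, a ratio of 1.40 (1.27 to 1.55) for Old over Young. Rb1cc1, the large scaffold also known as FIP200, had 222, 216, 178 and 306 reads in the library labelled cKO, WT, Old and Young. The ratio of Old over Young was 0.637 (0.526 to 0.769), so that Ulk1 and Rb1cc1 lay on opposite sides of Young in Old. Ulk3 and Atg101 had at most 86 reads in any library. The complex as a whole summed to 167, 159, 172 and 163 RPM.

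Becn1 stood out in the PI3-kinase complex by its level and by its ratio in the library labelled cKO. The gene (ENSMUSG00000035086, mm10 chr11:101285952-101302286, minus strand) encodes Beclin 1, the platform on which the lipid kinase assembles. It had 16830 reads in the library labelled cKO and 9831 in WT, and 12359 in Old and 13113 in Young. The library labelled cKO was highest and WT lowest of the 4, with a ratio of 1.68 (1.64 to 1.72). The same library was 1.41 times Young (1.38 to 1.44), WT was 0.819 times Young (0.798 to 0.841), and Old was 1.03 times Young (1.01 to 1.06). In the authors' deposited table the log2 fold change of Becn1 was 0.75 with an adjusted p of 0.357. The other subunits were rare. Pik3c3, the catalytic subunit Vps34, had 167, 161, 255 and 212 reads in the library labelled cKO, WT, Old and Young. Pik3r4 and Atg14, the regulatory subunit Vps15 and the subunit that directs the complex to autophagosomes, had 29 to 63 reads. Per kilobase, Becn1 made up 94.4% to 96.2% of the complex's summed level in the 4 libraries.

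Uvrag, which takes the place of Atg14 in the endosomal form of the complex, had 352 reads in the library labelled cKO and 308 in WT, and 189 in Old and 405 in Young. Old was lowest, 0.511 times Young (0.428 to 0.609) and 0.615 times WT (0.510 to 0.739). For the library labelled cKO over WT the ratio was 1.12 (0.961 to 1.31), which includes 1.

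Becn1 was also 1 of only 3 of the 41 genes with the nonamer TTATTTATT, a form of AU-rich element, in the 3′ UTR of its principal transcript. These sites are shown because AU-rich letters are what HuR is known to bind. Each is printed 5′ to 3′ as DNA of the transcript's strand, read from the mm10 (GRCm38) genome, with the nonamer in capitals.
Becn1, chr11:101286717-101286745, minus strand: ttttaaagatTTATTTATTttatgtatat
Becn1, chr11:101286519-101286547, minus strand: ttaaagatttTTATTTATTttatgtgaac
Atg16l1, chr1:87792342-87792370, plus strand: ggcacatcttTTATTTATTtaattatgtg
Gabarapl2, chr8:111953220-111953248, plus strand: tttttaaaaaTTATTTATTggtgttttgc
The 3 genes that hold these letters had different ratios in the library labelled cKO over WT: 1.68 for Becn1, 0.795 (0.679 to 0.930) for Atg16l1 and 1.05 (1.02 to 1.09) for Gabarapl2. The second Becn1 site lies where an exon of Cntd1 overlaps on the other strand. The nonamer was found in 7.32% of the 41 genes and in 7.25% of 12214 protein-coding genes in both tables. The shorter core ATTTA, which the nonamer contains, was searched on the transcript strand of the 3′ UTR. It was found in 31 of the 41 genes (75.6%), against 67.8% of those protein-coding genes. Among genes that reached 100 reads in the library labelled cKO or WT, the shares were 77.4% and 71.2%. The median 3′ UTR was 1179 bases in the 41 genes against 1040, but 1134 against 1183 among genes that reached 100 reads. Per kilobase of 3′ UTR the median number of ATTTA was 1.61 against 1.28, and 1.70 against 1.38 among genes that reached 100 reads. A match of letters is a description and shows no binding.

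Among the genes for lipid supply and for reading PI3P were the highest and the lowest ratio of Old over Young over the genes with at least 100 reads, Atg9a and Wipi2. Atg9a (ENSMUSG00000033124, mm10 chr1:75180860-75192196, minus strand), the scramblase whose vesicles seed the membrane, had 300 reads in the library labelled cKO and 366 in WT, and 977 in Old and 495 in Young. Old was highest, 2.16 times Young (1.94 to 2.41), just short of the 2-fold bound. Set against WT in place of Young, Old was 2.67 times as high (2.37 to 3.02) and passed it, as did 8.75% of genes in that pair. In the authors' deposited table the adjusted p of Atg9a for Old over Young was 0.0593. The library labelled cKO was 0.805 times WT (0.689 to 0.941).

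Wipi1 and Wipi2, both readers of PI3P on the forming membrane, lay on opposite sides of Young in Old. Wipi1 had 208 reads in the library labelled cKO and 104 in WT, and 236 in Old and 149 in Young, so that WT was lowest. Its ratio was 1.96 (1.55 to 2.51) for the library labelled cKO over WT and 1.73 (1.41 to 2.14) for Old over Young, and it was 0.763 (0.588 to 0.986) for WT over Young. Wipi2 had 119 reads in the library labelled cKO and 132 in WT, and 67 in Old and 158 in Young. Old was 0.464 times Young (0.344 to 0.622), while the library labelled cKO was 0.886 times WT (0.685 to 1.14). Atg2a, a lipid-transfer protein, had 436, 295, 454 and 427 reads in the library labelled cKO, WT, Old and Young, with WT again lowest and a ratio of 1.45 (1.25 to 1.69) for the library labelled cKO over WT. Its paralogue Atg2b, at 154 to 205 reads, had a ratio of 0.831 (0.666 to 1.04) there. Wdr45b, another reader of PI3P, had 185, 262, 240 and 269 reads and was lowest in the library labelled cKO, at 0.694 times WT (0.572 to 0.841). Wdr45, the most abundant of these readers per kilobase, had 494, 538, 456 and 510 reads and the interval of its ratio included 1 in both comparisons.

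All 7 conjugation genes had a ratio under 1 in the library labelled cKO over WT. The intervals of Atg12, Atg7 and Atg16l1 lay wholly below 1 and those of the other 4 included 1, and the summed level was 191 RPM in the library labelled cKO against 274 in WT. In Old the sum was 201 RPM against 267 in Young, but only 4 of the 7 genes lay below Young. Over all genes, 8121 of 16467 had a ratio above 1 for the library labelled cKO over WT and 7595 of 16180 for Old over Young. In the first pair 14 of the 16 platelet markers also lay below WT and 10 of 13 erythroid markers rose, and their part in the group's ratios was not tested. Against Young in place of WT, Atg3 and Atg5 lay above 1 in the library labelled cKO, at 1.14 (0.894 to 1.44) and 1.37 (1.05 to 1.79).

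Atg12, a ubiquitin-like protein that is joined to Atg5, was the most abundant of the group per kilobase of the deposited gene length, and Atg7 was with the length of the principal transcript (means of 16.9 RPKM for Atg12 and 29.6 for Atg7). The deposited length of Atg12 is also the only 1 of the 41 that differs from the annotation used here. It had 1066 reads in the library labelled cKO and 1792 in WT, and 1288 in Old and 1684 in Young. Both the library labelled cKO and Old lay below their partners, at 0.584 (0.541 to 0.631) and 0.837 (0.778 to 0.901). Atg7 (ENSMUSG00000030314, mm10 chr6:114643097-114860614, plus strand), the E1-like enzyme of both conjugation routes, had 1680 reads in the library labelled cKO and 2366 in WT, and 1551 in Old and 2433 in Young. The 2 comparisons share no library, and the ratio was 0.698 in each (0.655 to 0.743 for the library labelled cKO over WT, 0.655 to 0.744 for Old over Young). The ratio of WT over Young was 1.06 (1.00 to 1.12). In RPKM of the principal transcript, which uses read totals, Atg7 stood at 25.2 in the library labelled cKO and 35.0 in WT. It stood at 22.3 in Old and 35.7 in Young, so the equality of the ratios depends on the scaling used.

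The remaining conjugation genes were scarcer and went different ways in Old. Atg5, the partner of Atg12, had 130, 160, 56 and 104 reads in the library labelled cKO, WT, Old and Young, so that Old was lowest, at 0.590 times Young (0.418 to 0.824) and 0.351 times WT (0.254 to 0.478). Atg16l1, which places the Atg12 and Atg5 conjugate on the membrane, had 292, 361, 520 and 386 reads and was highest in Old, at 1.48 times Young (1.29 to 1.69). Its paralogue Atg16l2 had 49, 58, 26 and 64 reads and was lowest in Old. Atg3, the E2-like enzyme for the Atg8 family, had 144, 160, 184 and 139 reads, and Old was 1.45 times Young (1.16 to 1.82). Atg10, the E2-like enzyme for Atg12, had 22, 37, 80 and 33 reads. Its ratio of 2.65 for Old over Young (1.75 to 4.11) rests on fewer than 100 reads, yet Atg10 was the only 1 of the 41 genes with an adjusted p below 0.05 in the authors' deposited table (0.0471).

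The windows around the start sites of Atg3 and Atg5 are shown as examples from the conjugation group that hold the palindrome CACGTG, the core of the sites bound by basic helix-loop-helix factors such as Tfeb and Tfe3, which are known to act on autophagy genes. The ratios of both genes over WT have intervals that include 1. Each runs from 250 bases before to 50 bases after a RefSeq start site on GRCm38.p6, 5′ to 3′, with CACGTG in capitals.
Atg3, chr16:45158579-45158878, plus strand: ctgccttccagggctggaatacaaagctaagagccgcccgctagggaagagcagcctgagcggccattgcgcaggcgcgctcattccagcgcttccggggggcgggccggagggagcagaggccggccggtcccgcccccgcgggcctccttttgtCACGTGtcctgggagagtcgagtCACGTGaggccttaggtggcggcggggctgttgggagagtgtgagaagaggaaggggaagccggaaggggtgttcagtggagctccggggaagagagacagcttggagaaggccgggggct
Atg5, chr10:44268089-44268388, plus strand: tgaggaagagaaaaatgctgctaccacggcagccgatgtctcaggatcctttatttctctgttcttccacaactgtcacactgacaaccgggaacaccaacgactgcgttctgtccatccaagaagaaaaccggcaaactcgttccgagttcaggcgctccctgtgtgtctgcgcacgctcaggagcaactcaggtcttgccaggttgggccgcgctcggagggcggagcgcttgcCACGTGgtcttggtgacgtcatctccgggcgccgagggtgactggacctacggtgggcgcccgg
CACGTG reads the same on both strands and contains ACGTG, which was searched on both strands. RefSeq windows matched 33 of the 41 genes, with 37 windows. CACGTG was in 5 of them (13.5%), those of Atg3, Atg5, Atg7, Atg14 and Bnip3, against 7.15% of 32851 windows of all genes. The window of Atg7 starts inside the gene as the files give it, and is not printed. The windows of Atg10 and Atg16l2, of the same group, hold no CACGTG. Among genes that reached 100 reads in the library labelled cKO or WT, CACGTG was in 3 of 26 windows (11.5%) of the autophagy genes and in 10.1% of all windows. ACGTG was in 43.2% of the 37 windows, against 19.6% of all, and among genes that reached 100 reads in 42.3% against 26%. AGATAA, a motif of the GATA factors of megakaryocytes and red cells, was in 5.41% against 11.2%, and in 3.85% against 6.53%. The ratios of genes with CACGTG were not alike: Atg14, with few reads, had 1.80 (1.12 to 2.93) in the library labelled cKO over WT. Tfeb itself had 131, 99, 131 and 178 reads in the library labelled cKO, WT, Old and Young, and Tfe3 had 553, 397, 646 and 503. Tfe3 was 1.37 times WT in the library labelled cKO (1.2 to 1.56) and 1.41 times Young in Old (1.25 to 1.58).

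Among the Atg4 proteases, which trim the Atg8 proteins before conjugation and free them afterwards, Atg4a was the most abundant per kilobase in all 4 libraries. It had 326 reads in the library labelled cKO and 202 in WT, and 182 in Old and 257 in Young. It was highest in the library labelled cKO, at 1.59 times WT (1.33 to 1.90). Atg4d had 49 and 56 reads in the library labelled cKO and WT, and 158 in Old and 99 in Young. Old was 1.75 times Young (1.35 to 2.27) and 2.83 times WT (2.07 to 3.91), so that the 2-fold bound was passed against WT only. Atg4b had 90, 93, 98 and 160 reads and was highest in Young, and Atg4c had 14 to 25 reads.

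The Atg8 family, the proteins that coat the autophagosome and bind the receptors, was even in its sum and in its most abundant genes. Its sum was 1830, 1776, 1802 and 1883 RPM in the library labelled cKO, WT, Old and Young. Gabarapl1 had 8685, 8611, 8528 and 9594 reads, with ratios of 0.991 (0.962 to 1.02) for the library labelled cKO over WT and 0.973 (0.945 to 1.00) for Old over Young. Map1lc3b, encoding the LC3 protein used to count autophagosomes, had 12347, 12098, 11766 and 12633 reads, with ratios of 1.00 (0.978 to 1.03) and 1.02 (0.994 to 1.05). All of these intervals lie between 0.945 and 1.05, but they leave out the choice of scaling. With read totals as the scaling, Old over Young was 0.873 for Gabarapl1 and 0.915 for Map1lc3b, below that range. The library labelled cKO over WT was then 1.02 and 1.04. Gabarapl2 had 7353, 6864, 7759 and 7594 reads and was 1.12 times Young in Old (1.08 to 1.15), but 1.00 times Young with read totals.

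Gabarap and Map1lc3a were the members of the family that differed most. Gabarap had 3588 reads in the library labelled cKO and 4121 in WT, and 4926 in Old and 3937 in Young, with ratios of 0.855 (0.818 to 0.895) and 1.37 (1.31 to 1.43). Map1lc3a, the rarer of the LC3 genes here, had 414 reads in the library labelled cKO and 240 in WT, and 314 in Old and 410 in Young. WT was the lowest, with a ratio of 1.69 (1.44 to 2.00) for the library labelled cKO over WT but 1.11 (0.964 to 1.27) over Young. Per kilobase Gabarapl1 made up 35.1% to 39.1% of the family's level and Map1lc3a 1.80% to 3.07%.

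The cargo receptors summed to 664, 678, 687 and 693 RPM in the library labelled cKO, WT, Old and Young, and Optn departed most from this even level. RPM uses read totals. In the scaling used for the ratios, the sum in Old was 1.11 times Young, and all 4 receptors had a ratio above 1. Optn, encoding optineurin, a receptor for ubiquitin-tagged mitochondria and bacteria, had 607 reads in the library labelled cKO and 954 in WT, and 1459 in Old and 1045 in Young. It was lowest in the library labelled cKO and highest in Old, with ratios of 0.625 (0.564 to 0.693) over WT and 1.53 (1.41 to 1.66) over Young. WT over Young was 0.998 (0.913 to 1.09). Sqstm1, encoding the receptor p62, had 3802, 3074, 3356 and 3392 reads, so that the library labelled cKO was highest, at 1.22 times WT (1.16 to 1.27). Tax1bp1, the most read of the receptors, had 6898, 7796, 7417 and 7670 reads and ratios of 0.869 (0.841 to 0.898) and 1.06 (1.03 to 1.09). Nbr1, a receptor related to p62, had 441, 365, 451 and 458 reads and ratios of 1.19 (1.03 to 1.37) and 1.08 (0.945 to 1.23).

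Bnip3l (ENSMUSG00000022051, mm10 chr14:66985239-67008877, minus strand), the mitophagy receptor also called NIX, was the most abundant of the 41 genes in every library. It had 28736 reads in the library labelled cKO and 34706 in WT, and 26326 in Old and 30890 in Young. WT was highest and Old lowest, with ratios of 0.813 (0.801 to 0.826) for the library labelled cKO over WT, 0.933 (0.918 to 0.949) for Old over Young and 1.23 (1.21 to 1.25) for WT over Young. Maturing red cells also express this gene, so their markers are given beside it. Summed erythroid markers, led by Hba-a1, Hbb-bs, Hba-a2 and Alas2, stood at 16210 RPM in the library labelled cKO and 8343 in WT, and at 11500 in Old and 21660 in Young. Beside the 10 erythroid markers that rose in the library labelled cKO over WT, 1 fell (Hba-a2). In Old over Young 1 of 12 rose and 1 fell. Ahsp was not listed in either table, Klf1 was at 0 in Young, and the other 18 of the 20 markers had reads in every library. The sum and the single markers can differ. For the library labelled cKO over Young the summed ratio was 0.801, while 13 of the 19 listed markers had a ratio above 1. Over all genes 7271 of 14652 did. The part of red-cell RNA in the level of Bnip3l was not tested.

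The other receptors of the mitochondrial surface were far rarer. Fundc1 had 731 reads in the library labelled cKO and 1009 in WT, and 808 in Old and 668 in Young, with ratios of 0.712 (0.646 to 0.784) and 1.32 (1.19 to 1.47). The 2 wild-type pools of 3 months differed more than either comparison, with WT at 1.65 times Young (1.5 to 1.82). Bnip3, the paralogue of Bnip3l, had only 23, 19, 22 and 23 reads in the library labelled cKO, WT, Old and Young. Per kilobase, Bnip3l made up 95.1% to 96.5% of the 3 receptors' level.

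WT and Young are both wild-type pools of male mice at 3 months, and their ratios show how far the genes lay apart with no difference in the labelled genotype or age. They share a library with each comparison, so the values are set side by side only. Of 32 genes with at least 100 reads, 0 passed the 2-fold rule, where 1% of 6373 genes did, and 0 passed at 1.5-fold, where 5.32% did. Within 1.5-fold lay 25 of 31 genes (80.6%) for the library labelled cKO over WT, 24 of 33 (72.7%) for Old over Young and 28 of 32 (87.5%) for WT over Young. Over all genes with that many reads these shares were 73.8%, 61.5% and 83.2%. Some of the larger ratios over WT go with a low level in WT: for Becn1, Wipi1, Atg2a and Map1lc3a the WT level was 0.819, 0.763, 0.755 and 0.640 times that of Young. Atg12 and Optn stayed low in the library labelled cKO when Young was used, at 0.694 (0.642 to 0.750) and 0.637 (0.576 to 0.705).

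The ratios of the 2 comparisons showed no common order. Over the 31 genes with at least 100 reads in both pairs Pearson's r was 0.02 and Spearman's rho -0.01, and over 5986 genes they were 0.01 and 0.00. These are descriptions across genes, which are not independent replicates. In 9 of the 31 genes both ratios lay above 1, in 9 both lay below, in 4 the library labelled cKO lay above and Old below, and in 9 the library labelled cKO lay below and Old above.

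A further 49 genes of nutrient control, complex regulation, mitophagy, selective receptors and fusion with the lysosome were examined in the same way. In the library labelled cKO over WT 2 of the 41 of them that reached 100 reads rose and 0 fell (4.88%, against 4.22% of all genes), and in Old over Young 1 rose and 2 fell (7.32%, against 8.56%). Shares this near the background single out nothing about the list. Pink1 (ENSMUSG00000028756), the kinase that builds up on damaged mitochondria and tags them with phosphorylated ubiquitin, had 11537 reads in the library labelled cKO and 4849 in WT, and 11485 in Old and 7846 in Young. It rose 2.34-fold (2.26 to 2.42) over WT, and WT was the lowest library. Old was 1.60 times Young (1.56 to 1.65), and against Young, where 2.86% of genes passed, the library labelled cKO was 1.61 times as high (1.57 to 1.66). Marchf5, listed under the older symbol March5, encodes a ubiquitin ligase of the outer mitochondrial membrane and had 365 reads in the library labelled cKO and 142 in WT, and 143 in Old and 329 in Young. It rose 2.53-fold (2.07 to 3.09) over WT, but WT and Old were both low and the ratio over Young was 1.22 (1.05 to 1.42).

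In Old, Wdfy3 rose and Rubcn and Phb2 fell. Wdfy3, encoding the scaffold ALFY that brings protein aggregates to autophagosomes, had 181 reads in the library labelled cKO and 183 in WT, and 423 in Old and 177 in Young. Old stood above the other 3 libraries and rose 2.62-fold over Young (2.19 to 3.14). The call of Wdfy3 was lost with read totals as the scaling (2.35) and against WT (2.32). Rubcn, encoding Rubicon, an inhibitor of the PI3-kinase complex with Uvrag, had 579 and 615 reads in the library labelled cKO and WT, and 215 in Old and 656 in Young. Old was the only low library, at 0.359 times Young (0.306 to 0.419) and 0.350 times WT (0.299 to 0.410). Phb2, a prohibitin of the inner mitochondrial membrane that acts as a mitophagy receptor, had 288 and 238 reads in the library labelled cKO and WT, and 146 in Old and 421 in Young, a ratio of 0.380 for Old over Young (0.312 to 0.459). Against WT the ratio of Phb2 was 0.615 (0.497 to 0.759), which does not pass the rule.

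Usp30, a deubiquitinase of the outer mitochondrial membrane that opposes mitophagy, had 16 reads in the library labelled cKO and 56 in WT, and 17 in Old and 60 in Young. It was low in both the library labelled cKO and Old, with ratios of 0.281 (0.150 to 0.496) and 0.310 (0.170 to 0.539), but stayed under the minimum of 100 reads. Of the 11 genes for fusion with the lysosome, 8 lay below WT in the library labelled cKO and 9 lay above Young in Old, where 6 did with read totals as the scaling, and 0 passed the rule. The platelet markers were split in the same way, with 14 of 16 intervals below WT and 13 of 16 ratios above Young, and over all genes 8121 of 16467 and 7595 of 16180 ratios lay above 1. Of the other roles, the ratio lay above 1 in the library labelled cKO over WT for 5 of 10 nutrient control genes, 5 of 6 complex regulators, 8 of 13 mitophagy genes and 3 of 9 cargo receptors. In Old over Young it lay above 1 for 4 of 10, 2 of 6, 6 of 13 and 7 of 9 in the same order. Lamp2, a lysosomal membrane protein, had 10661 and 18931 reads in the library labelled cKO and WT, and 16862 in Old and 14307 in Young, with ratios of 0.553 (0.540 to 0.567) and 1.29 (1.26 to 1.32). Stx17, the fusion protein of the autophagosome, had 188 and 278 reads in the library labelled cKO and WT, and 344 in Old and 172 in Young, with ratios of 0.664 (0.549 to 0.802) and 2.19 (1.82 to 2.65). Rab7, the small GTPase of late endosomes, had ratios of 0.642 (0.611 to 0.674) and 1.31 (1.25 to 1.37). Tecpr1, also of the fusion genes, went the other way, with log2 fold changes of 0.823 and -0.698 in the authors' deposited tables. Over the 11 fusion genes, 8 intervals lay wholly below 1 and 1 above in the library labelled cKO over WT. In Old over Young 6 lay above and 1 below.

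**Figure D3:**
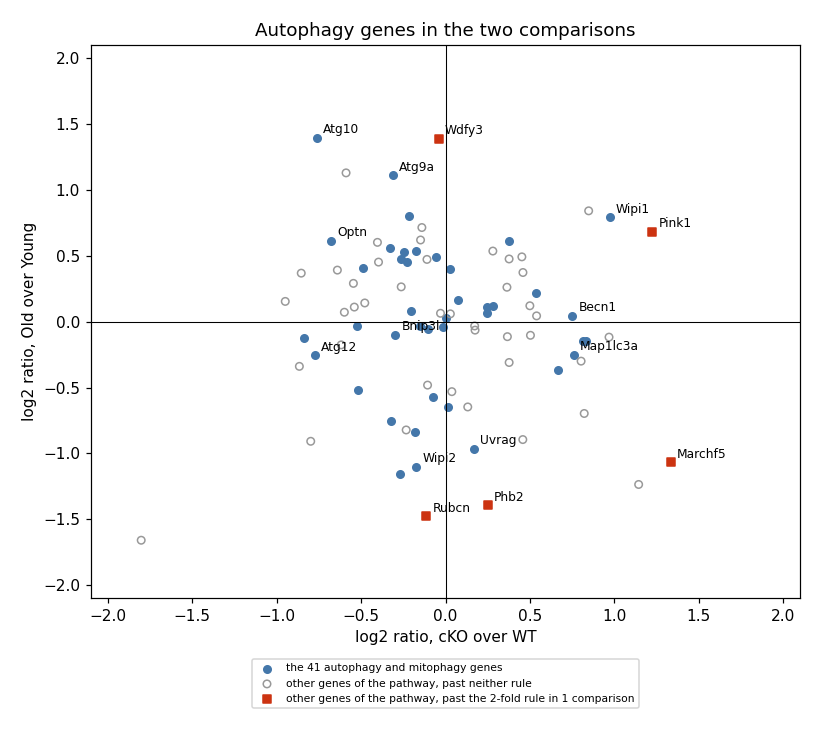
Log2 ratio of the library labelled cKO over WT on the horizontal axis against the log2 ratio of Old over Young on the vertical axis, for the 41 autophagy and mitophagy genes (filled circles) and the other genes of the pathway with at least 20 reads in each pair (open circles, or squares where the 2-fold rule was passed). The filled circles spread around the origin with no common direction (Pearson's r 0.02 over 31 genes), and the squares of Pink1, Marchf5, Wdfy3, Rubcn and Phb2 lie at its edge.

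Markers of other blood cells moved strongly between Old and Young. Neutrophil markers, led by S100a9, S100a8, Csf3r and Mmp9, summed to 838 RPM in Old against 31.5 in Young, and 10 of the 10 with at least 100 reads rose. Camp, Ltf, Mpo and Ly6g were at 0 in Young and had reads in Old, and Elane was not listed. Their sums in the library labelled cKO and WT were 41.01 and 68.4, where Ngp, Camp, Ltf, Mpo and Ly6g were not listed and Lcn2 was at 0 in the library labelled cKO. B cell markers, led by Pax5, Ebf1, Ms4a1 and Cd79a, summed to 83.9 RPM in Old against 302 in Young, and 6 of 10 fell, with none at 0 in any library. Monocyte and macrophage markers summed to 2330, 3418, 2574 and 3519 RPM in the library labelled cKO, WT, Old and Young, nearly all of it from Lyz2, with Cx3cr1 at 0 in Old and Cd14 at 0 in Young. The count went against the sum in Old over Young, where Lyz2 had a ratio of 0.802: 3 of the 5 with enough reads rose (Csf1r, Ccr2 and Cd14), 0 fell, and 7 of 10 had a ratio above 1. In the library labelled cKO over WT 0 of 3 rose or fell. T and NK cell markers summed to 50.8, 50.8, 52.9 and 95.7, with none at 0, and 0 rose in either comparison, while 1 of 4 fell in the library labelled cKO over WT and 2 of 6 in Old over Young. The 41 genes summed to 5638, 5578, 5195 and 5657 RPM, and in the scaling used for the ratios the sum in Old was 1.02 times Young. Bnip3l gave 27.4% of this sum in Old and 30.1% in Young, so the sum does not show how single genes moved. The ratios of Atg9a, Uvrag, Wipi2, Rubcn, Phb2 and Wdfy3 in Old stand beside these marker differences, and the part of other cells in them was not tested.

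**Figure D4:**
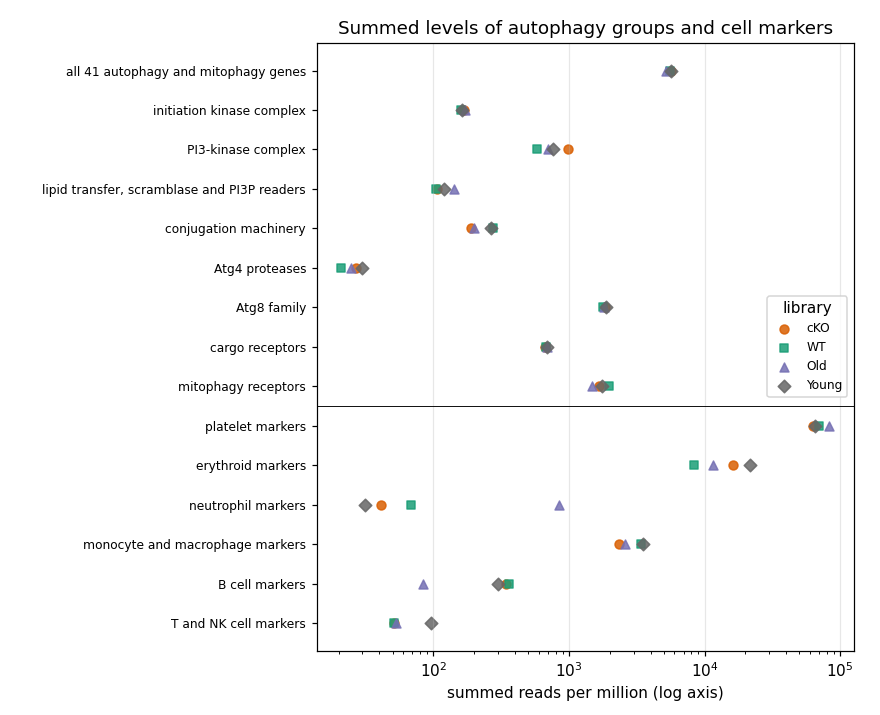
Summed RPM on a log axis in the 4 libraries for the 41 genes and each of their roles (above the line). Markers of blood cell types are below the line. The symbols of the Atg8 family and the cargo receptors nearly coincide, the PI3-kinase complex stands at 986 in the library labelled cKO against 578 in WT, and neutrophil markers stand at 838 in Old against 31.5 in Young.

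The authors' deposited table gave no adjusted p below 0.05 for any of the 41 genes in the library labelled cKO over WT, where 624 of 16467 genes had one, and the lowest was 0.247, for Wipi1. For Old over Young it gave 1 of 41, Atg10, where 2004 of 16180 genes had one. Among the other 49 genes it gave 0 in the first comparison and 5 in the second, among them Rubcn (0.0105), Phb2 (0.0187), Usp30 (0.0328) and Wdfy3 (0.0191). These p-values compare single libraries, not conditions.

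Reads of some genes can be shared with copies or neighbours, and how such reads were counted, and whether strand was used, is not stated in the labels or file headers. In 23 of the 41 genes no stretch of 100 bases recurs in a transcript of another gene in the annotation. More than 5% of such stretches recur for 11 genes, among them Atg4a (34.7%), Becn1 (30.7%), Atg9a (27.8%), Gabarapl1 (18.0%), Uvrag (14.4%) and Bnip3l (14.0%). The copy Bnip3l-ps itself had 1525, 1288, 1702 and 1689 reads in the library labelled cKO, WT, Old and Young, and with them added the ratios of Bnip3l were 0.826 and 0.942. Cntd1, which overlaps Becn1 on the other strand, had 4, 1, 6 and 0 reads. Exons of 14 of the 41 genes overlap those of a gene on the other strand.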

How the data were processed

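Platelet RNA was sequenced in 1 library per group, each a pool of 7 mice, and groups follow the labels. The authors deposited, per the file headers, 2 tables, 1 per comparison, that hold a signal for every gene in both libraries beside a log2 fold change and p-values, raw and adjusted. Per the submitters' processing notes, the build was mm10 and the tools were DESeq2 1.20.0, featureCounts 1.5.0-p3, HISAT2 2.0.5 and CASAVA, with no role stated for any of them. The deposited signal proved to be whole reads multiplied by a step that is fixed for each library, with a small offset. Division by that step recovered whole counts, to within 0.02 read, for 100% of values in all 4 libraries, and these counts were used. No count test was run, since 1 library per group leaves no spread to test. The tables also hold 4 columns of values for libraries under names found in no label, which were left out.

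Library sizes were scaled by TMM within each pair (edgeR 4.0.16, R 4.3.3), and pairs across the tables used the 14652 genes in both. The intervals of ratios are exact 95% Clopper-Pearson intervals (scipy 1.17.1) of a gene's share of reads in 1 library, shares of reads are from totals of at least 17702341, and both cover counting error only, since amplified reads without identifiers do not each stand for a molecule. A count of 0 allows up to 3 reads, or 0.162 to 0.169 RPM. Log2 ratios carry a pseudocount of 0.5 read. Medians use genes with at least 20 reads over both libraries, and genes with fewer than 2 reads over a pair are absent from its table. Levels in RPKM use the gene lengths of the deposited tables. Start-site windows are from RefSeq on GRCm38.p6, and 3′ UTRs from GENCODE vM21. Only the recovery of reads, the intervals and the 2-fold rule were tested on simulated data, which held counting error only.

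The genes named in full were Elavl1, the 8 of the 41 with the largest log2 ratio of either sign per comparison among those with at least 100 reads, the 8 highest in RPKM, the other pathway genes past the rule, and up to 4 markers per cell type by reads; further genes were named after their values were seen. The 41 genes, the other lists and the rules were chosen with earlier results of these data known. Alternatives were other scalings, minimum counts, bounds, pseudocounts and the other wild-type library as partner.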

Additional observations from a re-analysis of the deposited data

How the results depend on the processing

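The count of 0 of the 41 genes past the 2-fold rule held in both comparisons with read totals or median-of-ratios scaling, with a minimum of 20 reads or none, and at a 4-fold bound. It became 3 in each comparison at a 1.5-fold bound (9.68% against 13.5% of all genes, and 9.09% against 23.3%). With Old set against WT it became 3, or 9.38% of 32 against 8.75% of all genes. These were Atg9a at 2.67 and Atg4d at 2.83 above, and Atg5 at 0.351 below. For the library labelled cKO the count stayed at 0 against Young. For WT over Young it was 0 under every alternative run. Among the other 49 genes, the library labelled cKO over WT gave 6 at a bound of 1.5-fold (14.6%, against 13.5% of all genes). It gave 0 at 4-fold and 1 (Vmp1) against Young (2.44%, against 2.86%), in place of 2. Old over Young gave 8 at 1.5-fold (19.5%, against 23.3%) and 0 at 4-fold, in place of 3. With read totals Ambra1 there took the place of Wdfy3 (2.35). With Old set against WT, Prkaa2, Rubcn and Pink1 passed (7.69%, against 8.75%). Without Bnip3l, the genes summed to 0.401% of reads in the library labelled cKO, 0.365% in WT, 0.377% in Old and 0.396% in Young. Read totals shifted the median log2 ratio of all genes from -0.06 to -0.22 in Old over Young, and that of the 41 genes from 0.05 to -0.11. Becn1, Map1lc3b, Sqstm1, Nbr1, Tax1bp1 and Bnip3 then lay on the other side of 1, as did Gabarapl1 in the library labelled cKO over WT. Over both comparisons, read totals moved 15 ratios of the genes named in full outside their counting intervals, while 20 were the same. Among the 15 were Gabarap (1.23), Optn (1.37) and Bnip3l (0.837) in Old over Young. With the length of the principal transcript the same 8 genes were highest. Alternatives on the copies, the transcript length, Bnip3l and WT over Young were chosen after the data had been seen. No paired analysis was possible because each group has 1 library, and for the same reason no library could be left out. Depth limits the genes under 100 reads, whose intervals often span 2-fold.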
